A study of Arabidopsis thaliana with 9 samples.

Results

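These data describe 36 probe sets of the ATH1 array that had low signals in control plants of Arabidopsis thaliana and brighter on every array of plants with a mutated HDA6, out of 22746 probe sets without the array's control sets. They were chosen from the signals themselves. A probe set was taken if it lay under 50 on each of the 3 control arrays, if all 6 mutant arrays lay above all 3 control arrays, and if the mean of the 6 mutant arrays was at least 30 and at least 3 times the control mean. Organelle transcripts, pseudogenes, a run of neighbouring genes on chromosome 5 and a set of named loci were left out by the same rule. Of the 36 probe sets, 21 have a single gene in the annotation used here, 2 are shared by a pair of genes, and 13 are unnamed here. All 36 are counted in what follows, with no filter on low values. Low is meant here as the limit of 50 and not as silence: the control arrays had medians of 31.8 to 34.6, and 3 of the 36 reached the median of at least 1 control array. The unnamed probe set 250476_at, with signals of 29.6, 34.3 and 36.7 on the double transformant arrays, is 1 of these.

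The arrays fell into 3 groups of 3, all from whole plants of the Col-0 strain grown for 35 days at 21 ºC in constant light on Murashige and Skoog medium. The null mutant and the amino acid substitution mutant of HDA6 are both labelled with the source rts1-1 and with an EMS-induced mutation in HDA6, and only their titles tell them apart. Whether they are separate alleles was not settled by these labels. The double transformant, labelled Columbia with no HDA6 mutation, served as control. What it carries is not given in the labels either. Mutants named rts1 are known from a screen for plants that lose the silencing of a transgene promoter in a line with a pair of transgenes. Whether the present plants carry those transgenes was not given.

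HDA6 is a histone deacetylase. It removes acetyl groups from histone tails, and together with the maintenance DNA methyltransferase MET1 it is known in Arabidopsis for keeping transposable elements, repeated ribosomal genes and some transgenes silent. A gene that is not transcribed gives an array signal near background. The level of HDA6 itself was not analysed here, because its probe set is unnamed.

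Median signals per array ran from 31.8 to 36.8, and 3 arrays a group set the limit of precision. Double transformant 3 and null mutant 3 had the highest ratios of the 3' to the 5' signal of the GAPDH control (2.15 and 1.95, against 1.38 to 1.82 on the other arrays), a sign of RNA or labelling quality, and they correlated least with the rest (mean r of 0.946 and 0.945, against 0.954 to 0.967). Double transformant 1 is labelled with a night humidity of 35%, where every other array has 53%. The titles of double transformant 1, null mutant 1 and substitution mutant 3 end in rpt, and the titles do not say what this means. Separate cultures within a group are not stated in the labels, so the tests rest on a spread between arrays that could be technical. As a check of the tissue, RCA (Rubisco activase) had signals of 4120 to 7420 in the null mutant, 4590 to 6310 in the substitution mutant and 4840 to 8540 in the double transformant. PYK10, a root beta-glucosidase gene, had 827 to 1280 in the null mutant, 988 to 1290 in the substitution mutant and 788 to 1130 in the double transformant. The other measured root gene, the root hair expansin gene EXPA7, was near background, with 1.13 to 8.99 in the null mutant, 0.584 to 2.47 in the substitution mutant and 2.86 to 7.79 in the double transformant. Of the photosynthesis and root lists 2 of 12 and 2 of 10 genes were measured, and of the floral list 0 of 8. Measured means here that a named probe set was found for the gene. Other listed genes may lie among the 8730 probe sets without a gene name here.

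The genes of the 21 single-gene probe sets have varied roles. They include a phosphatidylinositol kinase of the gamma class (AT5G24240), a pair of genes for ribosomal proteins (AT1G36240 and AT3G28500), F-box proteins (AT4G29370 and AT1G11270), which recruit targets for ubiquitination, a lectin-like protein known to be induced by salicylic acid (AT5G03350), a protein with an Agenet domain (AT5G52070), a member of the inositol monophosphatase family (AT5G63990), a relative of pathogenesis-related protein PR-1 (AT2G19970), seed genes (M17 and AT2G21820) and SUFE2. No role is given here for the other 9. Of the 21 genes, 5 lie on chromosome 1, 3 on chromosome 2, 3 on chromosome 3, 2 on chromosome 4 and 8 on chromosome 5.

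**Figure D1:**
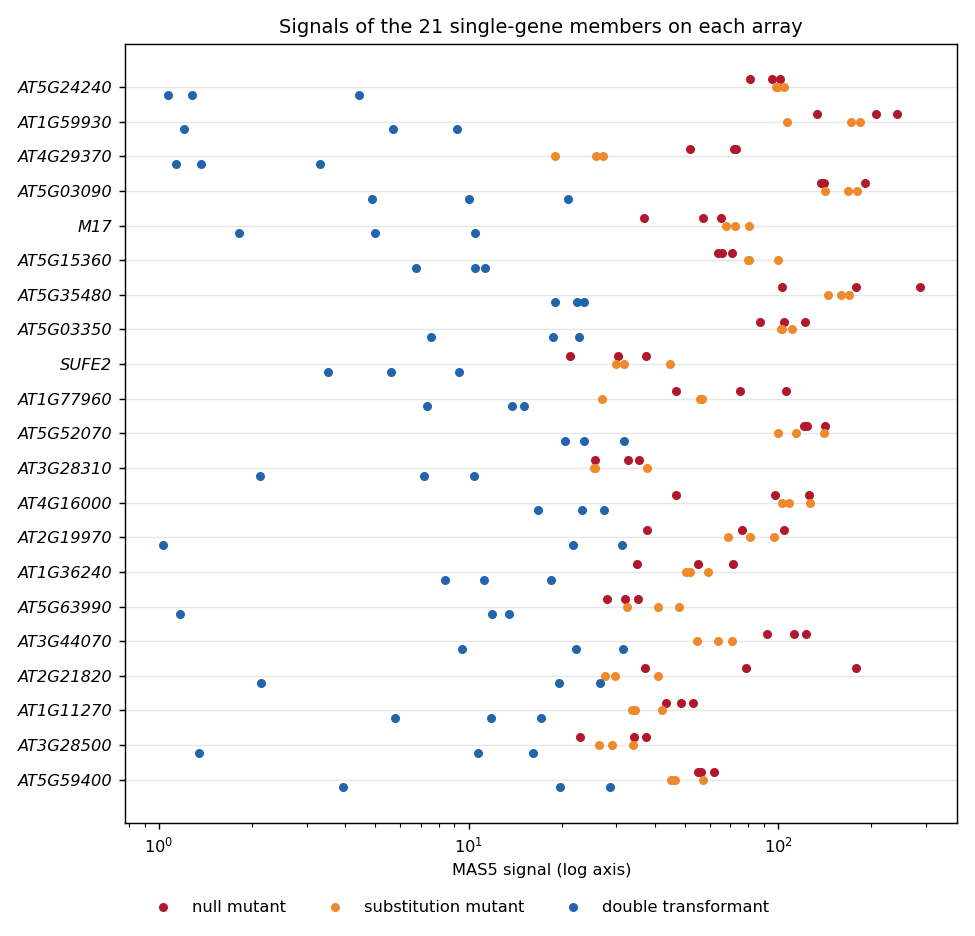
MAS5 signal on a log axis for the 21 probe sets with a single gene (rows, ordered by the ratio of the mean of the 6 mutant arrays to the double transformant mean, highest on top). Each point is 1 array, coloured by null mutant, substitution mutant or double transformant. By the rule, each row has its 6 mutant points to the right of its 3 control points, and the distance narrows to a ratio of 3.06 for AT5G59400.

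The widest separations were seen where the control lay at the floor of the array. The unnamed probe set 266680_s_at had signals of 627, 552 and 662 on the null mutant arrays, 563, 706 and 653 on the substitution mutant arrays, and 0.566, 0.534 and 2.70 in the double transformant. All 3 control signals were near background, and every mutant array was at least 137 times a floor of 4.03, the 20th percentile of all signals. AT5G24240, the phosphatidylinositol kinase gene, had 81.1, 101 and 95.4 on the null mutant arrays, 104, 99.6 and 98.0 on the substitution mutant arrays, and 1.28, 1.07 and 4.44 in the double transformant. Its 6 mutant arrays lay close together, and all of them were at least 18.3 times the highest control array. On the scale of log2(signal + 4.03), where the offset is that same percentile, AT5G24240 differed from the double transformant by 3.97 ± 0.25 for the null mutant and by 4.09 ± 0.25 for the substitution mutant (limma estimate ± SE, n = 3 arrays per group). No test is attached to such differences here, because the same arrays chose the probe sets.

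AT5G03090 also held a narrow range in the mutants. It had signals of 137, 190 and 141 on the null mutant arrays, 142, 180 and 168 on the substitution mutant arrays, and 4.87 to 21.0 in the double transformant. Its difference from the double transformant was 3.44 ± 0.31 for the null mutant and 3.51 ± 0.31 for the substitution mutant. AT5G03350, the lectin-like gene, had 122, 87.1 and 104 on the null mutant arrays, 111, 102 and 103 on the substitution mutant arrays, and 18.8, 22.8 and 7.57 in the double transformant. For both genes the arrays of one mutant overlapped those of the other, and all lay well above the controls. AT5G52070, the Agenet domain gene, had 142, 124 and 121 on the null mutant arrays, 114, 140 and 100 on the substitution mutant arrays, and 20.5, 31.8 and 23.6 in the double transformant.

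AT1G59930 had signals of 207, 133 and 242 on the null mutant arrays, 107, 172 and 183 on the substitution mutant arrays, and 5.69, 9.21 and 1.21 in the double transformant. Its probe set bears the suffix for probes that match related sequences, so its signal may not belong to this locus alone. The probe set shared by AT4G15096 and AT2G40955 had 41.7, 47.1 and 29.9 on the null mutant arrays, 43.2, 43.0 and 38.4 on the substitution mutant arrays, and 0.872, 0.342 and 0.399 in the double transformant. The probe set shared by AT5G41830 and AT4G00320, a pair of genes of the F-box family, had 28.2 to 36.3 in the null mutant, 34.3 to 43.2 in the substitution mutant, and 3.16 to 18.5 in the double transformant. In both shared sets the mutant groups overlapped each other, and neither set tells which of its genes gave the signal. The unnamed probe set 249727_at came closest to the control limit, at 45.4 on 1 array, with 227 to 366 in the null mutant and 237 to 365 in the substitution mutant.

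Over the 36 probe sets, the mean of the 6 mutant arrays was 3.06 to at least 156 times the control mean, with a median of 4.58, and 7 exceeded 10 times. For these ratios a control mean under the offset, as 5 of the probe sets had, was set to the offset. The median log2 difference was 1.94 for the null mutant, against 0.0191 over all probe sets, and 1.97 for the substitution mutant, against -0.0031. These comparisons share the same 3 double transformant arrays. At a Benjamini-Hochberg adjusted p under 0.05 in limma, 25 of the 36 were called higher in the null mutant, where 0.659% of all probe sets were, and 23 in the substitution mutant, where 0.62% were. The rule used these contrasts, so nothing is read from the counts. Without single arrays the count in the null mutant was lowest at 16, without double transformant 2 or without null mutant 3. In the substitution mutant it was 11, 12 and 14 without substitution arrays 1, 2 and 3, and 15 without double transformant 2. Without double transformant 3 and null mutant 3 together the counts were 16 for the null mutant and 17 for the substitution mutant.

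In several of the single-gene probe sets the control arrays lay far apart. AT2G19970, the PR-1 relative, had 37.7, 104 and 76.1 on the null mutant arrays, 68.8, 81.0 and 96.6 on the substitution mutant arrays, and 31.3, 21.8 and 1.03 in the double transformant. AT5G63990, of the inositol monophosphatase family, had 32.1, 35.3 and 27.9 on the null mutant arrays, 47.7, 40.8 and 32.5 on the substitution mutant arrays, and 13.5, 11.9 and 1.17 in the double transformant. AT5G59400 (19.8, 28.7 and 3.92 in the double transformant) and AT3G28500 (16.1, 10.7 and 1.35) had the same feature: the low value was that of double transformant 3, one of the arrays that stood apart. Without that array, these 4 genes, AT1G11270 and the unnamed probe set 252414_at no longer met the rule.

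The seed genes differed in how evenly the mutant arrays were raised. M17, which encodes a late embryogenesis abundant protein, had 36.9, 57.2 and 65.2 on the null mutant arrays, 67.6, 80.5 and 72.5 on the substitution mutant arrays, and 10.5, 4.99 and 1.81 in the double transformant. All 3 substitution arrays lay above all 3 null mutant arrays. AT2G21820, known as a gene for a seed maturation protein, had 178, 37.2 and 78.5 on the null mutant arrays, 29.8, 40.8 and 27.6 on the substitution mutant arrays, and 26.6, 2.13 and 19.6 in the double transformant. Its brightest array, null mutant 1, was 2.26 times the next, and its lowest mutant array was 1.03 times the highest control array. AT2G21820 no longer met the rule without null mutant 1 or without double transformant 2. In the list of seed genes, 1 of 17 was measured, the storage protein gene PAP85. It is not among the 36 and is a locus that the rule leaves out by name. PAP85 had 31.5, 146 and 74.9 on the null mutant arrays, 122, 71.4 and 94.9 on the substitution mutant arrays, and 34.7, 4.65 and 16.2 in the double transformant. Its difference of 1.98 ± 0.55 for the null mutant did not pass (limma adjusted p = 0.168), nor did that of 2.37 ± 0.55 for the substitution mutant (limma adjusted p = 0.0901). The unadjusted limma p was 0.00399 and 0.00118, for a gene listed with earlier results of these data known. The part of seed tissue in these values was not tested, and in whole-plant RNA more cells of a type and more RNA per cell cannot be told apart.

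SUFE2 activates a cysteine desulfurase in the assembly of iron-sulfur clusters, and in Arabidopsis its transcript is known mainly from pollen. It had 30.4, 37.4 and 21.3 on the null mutant arrays, 31.8, 29.9 and 44.8 on the substitution mutant arrays, and 3.53, 9.35 and 5.60 in the double transformant. Of 11 pollen and tapetum markers listed, 6 were measured, and limma called 0 in either mutant. At an unadjusted p under 0.05 there were 2 in each, ANX2 and SHT, both lower in the mutants. Over all probe sets this share was 11.1% for the null mutant and 11.8% for the substitution mutant. With 6 markers near background, nothing is read from the count. The rest went both ways. AMS differed by 0.45 and 0.2 (null and substitution mutant), MGH3 by -0.01 and 0.07, ANX1 by -0.11 and -0.08, and A9 by -0.14 and -0.59. Most signals of the 6 were a few units, near background. ANX2, for a receptor kinase of pollen tubes, had 0.209 to 0.929 in the null mutant and 0.816 to 1.26 in the substitution mutant. In the double transformant it had 7.13, 0.636 and 11.6, so double transformant 2 lay among the mutant arrays. SHT, for an acyltransferase of the tapetum, had 0.564 to 9.86 in the null mutant, 0.663 to 4.06 in the substitution mutant and 4.36 to 24.1 in the double transformant. The summed signal of all 6 markers was 3.79 to 27.8 in the null mutant, 4.71 to 15.6 in the substitution mutant and 8.78 to 47.6 in the double transformant.

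Both ribosomal protein genes have measured relatives. AT1G36240, for a large-subunit protein, had 71.5, 34.9 and 55.2 on the null mutant arrays, 59.4, 51.8 and 50.5 on the substitution mutant arrays, and 8.41, 11.2 and 18.4 in the double transformant. AT1G77940, a family member chosen after the 36 were known, had 771 to 985 in the null mutant, 1100 to 1250 in the substitution mutant and 847 to 954 in the double transformant. Its differences from the double transformant, -0.01 ± 0.13 for the null mutant and 0.37 ± 0.13 for the substitution mutant, did not pass (limma adjusted p = 0.987 and 0.256). AT3G28500, for an acidic protein of the ribosomal stalk, had 22.9, 37.5 and 34.2 in the null mutant, 26.4 to 34 in the substitution mutant, and 16.1, 10.7 and 1.35 in the double transformant. AT2G27720, AT2G27710 and AT3G44590, of the same stalk family, did not pass in either mutant, with differences of 0.34, 0.16 and 0.02 for the null mutant and 0.49, 0.27 and 0.33 for the substitution mutant. AT2G27720 had 943 to 1350 in the null mutant, 1150 to 1420 in the substitution mutant and 799 to 942 in the double transformant. Every mutant array thus lay above its controls, if barely, while AT2G27710 and AT3G44590 overlapped theirs. Of the PR-1 family of AT2G19970, AT2G19980 had 0.84 to 1.47 in the null mutant, 0.47 to 5.32 in the substitution mutant and 1.00 to 3.04 in the double transformant. PR-1-LIKE had a difference of 0.04 ± 0.43 for the null mutant (limma adjusted p = 0.987) and 0.98 ± 0.43 for the substitution mutant (limma adjusted p = 0.397).

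The comparison left for a test was that between both mutants, which the rule did not set against each other. The rule is not wholly free of it, since every mutant array had to lie above the controls and since the limits on the mean and the ratio apply to the 6 mutant arrays together. Of the 36, 24 met both limits in each mutant on its own. In 10 the substitution mutant alone fell short of a limit, and in 2 the null mutant alone. None of the 36 was called (limma, adjusted p under 0.05), where 0.0396% of all probe sets, 9 in number, were. At an unadjusted p under 0.05, 2 of the 36 differed, where 6.36% of all probe sets did. Both, AT4G29370 and AT3G44070, were higher in the null mutant and are among the 10, so their place depended in part on the group in which they were high. The median difference, null mutant minus substitution mutant, was 0.03, against 0.0265 over all probe sets, with 20 of the 36 above 0 and 16 below. A p above the threshold does not show that the mutants were alike. The 95% interval of the difference lay within -1 and 1 on the log2 scale for 17 of the 36 and reached beyond for 19. For AT5G24240 it ran from -0.66 to 0.42, and for 266680_s_at from -0.43 to 0.31.

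**Figure D2:**
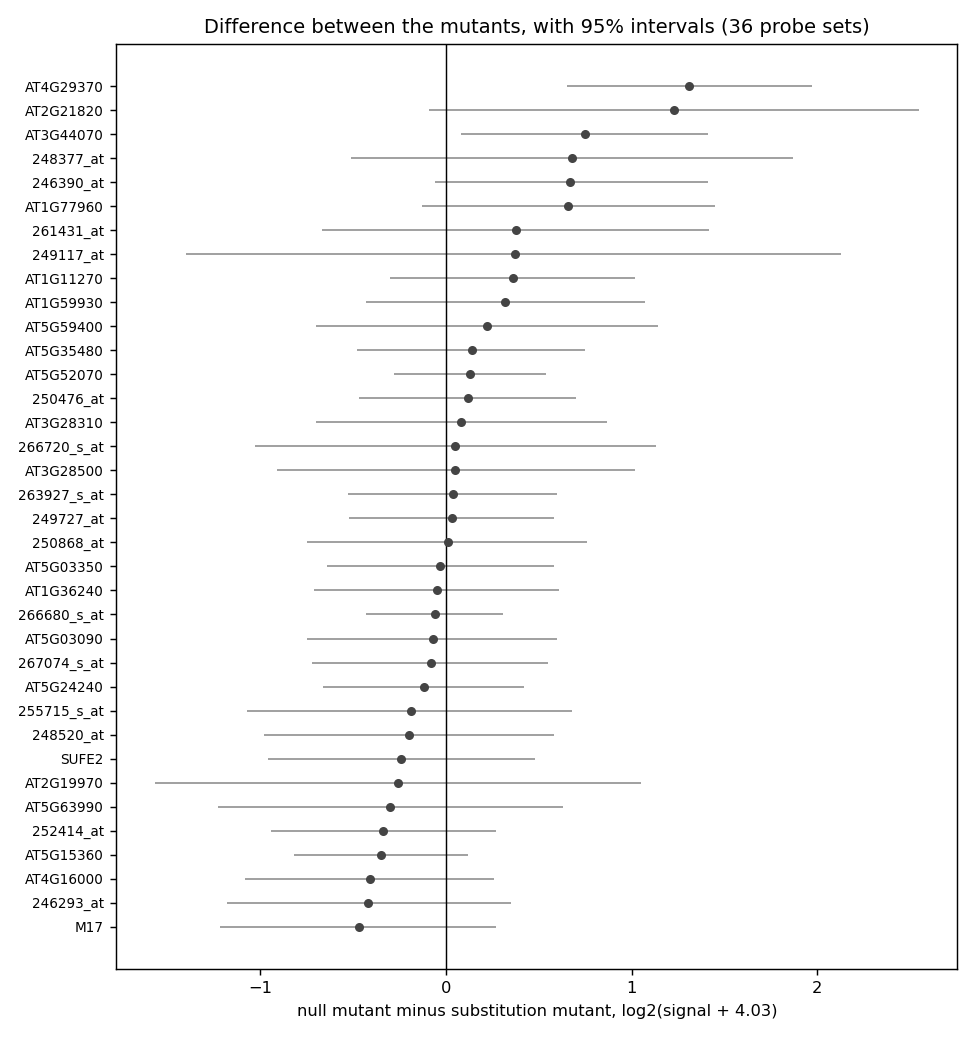
Difference on the scale of log2(signal + 4.03), null mutant minus substitution mutant, for each of the 36 probe sets (points) with 95% intervals from limma (bars), sorted by size. The intervals of AT4G29370 and AT3G44070, which met the rule through the null mutant, lie above 0, and those of the other 34 include it.

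The largest difference between the mutants was that of AT4G29370, the gene for an F-box protein with kelch repeats. It had 51.9, 71.8 and 72.9 on the null mutant arrays, 27.2, 25.8 and 19.0 on the substitution mutant arrays, and 1.37, 3.31 and 1.14 in the double transformant. The 3 groups did not overlap, with the substitution mutant between the others. It met the limit of 30 on the mutant mean through the null mutant, which averaged 65.5 ± 11.8, against 24.0 ± 4.43 in the substitution mutant (SD, n = 3 each). The difference of 1.31 ± 0.30 is therefore a description, and it did not pass over all probe sets. AT3G44070 had 112, 91.9 and 123 on the null mutant arrays, 63.8, 70.9 and 54.7 on the substitution mutant arrays, and 9.56, 22.2 and 31.5 in the double transformant, with a difference between the mutants of 0.75 ± 0.30. It met the ratio through the null mutant, and this difference too is a description that did not pass. AT1G11270, another F-box gene, had 43.3, 53.2 and 48.4 on the null mutant arrays, 33.6, 34.6 and 42.1 on the substitution mutant arrays, and 11.8, 17.1 and 5.78 in the double transformant. These genes and 246390_at, 4 in all, had each null mutant array above each substitution array. The reverse held for M17, with a difference of -0.47 ± 0.34, and for AT5G15360, which had 63.8, 70.8 and 65.9 on the null mutant arrays, 80.7, 100 and 79.6 on the substitution mutant arrays, and 11.3, 6.79 and 10.5 in the double transformant. Such separation, in 6 of 36 probe sets (16.7%), was seen for 11.7% of all probe sets.

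Some of the 36 owed their place to 1 array. In 4 of them the brightest mutant array was over 2 times the next, and in all 4 this was null mutant 1: 249117_at, 261431_at, 266720_s_at and AT2G21820, at 4.85, 2.44, 2.05 and 2.26 times the next. For 249117_at the signals were 123, 9.69 and 5.37 on the null mutant arrays, 25.3, 21.0 and 6.40 on the substitution mutant arrays, and 4.61, 2.31 and 1.86 in the double transformant. Without null mutant 1, an array with rpt in its title, these 4 and AT5G59400 no longer met the rule. In contrast, the highest mutant array was under 2 times the lowest for 16 of the 36, and 24 of the 36, among them 14 with a single gene, met the rule whichever single array was left out. The spread within groups, given as the median SD of log2(signal + 4.03), was 0.319 in the null mutant, 0.236 in the substitution mutant and 0.453 in the double transformant, against 0.302, 0.213 and 0.268 over all probe sets.

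**Figure D3:**
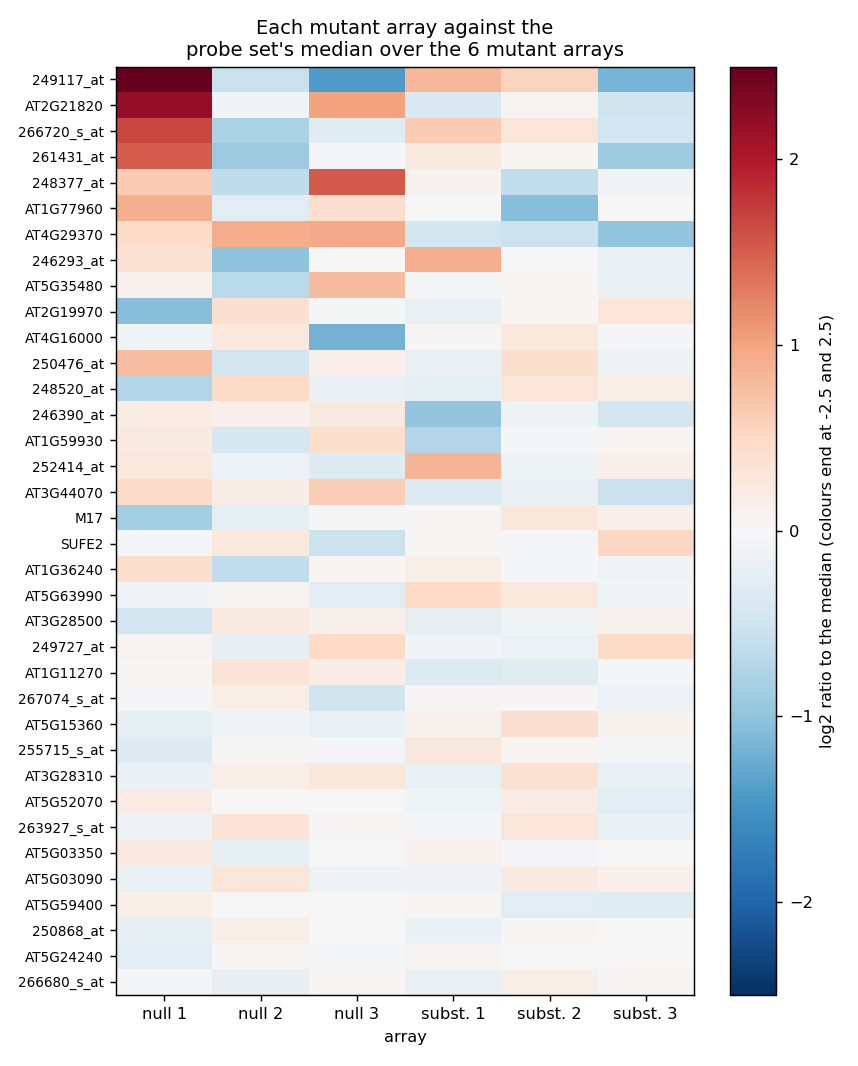
Log2 ratio of each mutant array (columns) to the median of the 6 mutant arrays, for each of the 36 probe sets (rows, widest range on top). The darkest red cells lie in the column of null mutant 1, and the rows at the foot, among them AT5G24240 and 266680_s_at, are nearly even.

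The remaining single-gene probe sets lay between these cases. AT5G35480 had 103 to 286 in the null mutant, 145 to 169 in the substitution mutant and 19.0 to 23.6 in the double transformant. AT4G16000 had 46.7 to 126 in the null mutant, 103 to 127 in the substitution mutant and 16.8 to 27.4 in the double transformant, with null mutant 3 the lowest mutant array. AT1G77960 had 46.7 to 106 in the null mutant, 27.0 to 56.7 in the substitution mutant and 7.34 to 15.1 in the double transformant. AT3G28310 had 25.7 to 35.4 in the null mutant, 25.4 to 37.8 in the substitution mutant and 2.12 to 10.4 in the double transformant. It came closest to the limit on the mutant mean, at 30.4, and its mean in the substitution mutant alone was 29.6. AT3G28310 no longer met the rule without null mutant 2, null mutant 3 or substitution mutant 2. The same held after quantile normalization or scaling to the same median.

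At the borders of the rule, values inside and outside lay close. For the ratio, AT5G59400 (3.06) and 266720_s_at (3.11) were inside, and 265188_at (2.98) and AT2G17280 (2.97) outside. For the mutant mean, AT3G28310 (30.4) and AT3G28500 (30.7) were inside, and AT5G33390 (29.2) and AT5G49560 (28.2) outside. For the separation of arrays, 248377_at had a lowest mutant signal of 36 and a highest control signal of 35.9, and 250408_at, outside, had 19.8 and 20.0. For the control limit, 249727_at (45.4) was inside and 256589_at (51.7) outside, with a mutant mean of 205. The ratio alone kept out 197 probe sets, the mutant mean alone 157, the separation alone 14 and the control limit alone 7.

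With the groups exchanged, all 6 mutant arrays had to lie under 50 and all 3 control arrays above all 6. The control mean had to be at least 30 and at least 3 times the mutant mean. The rule in this form found 1 probe set before exclusions and 0 after them, against 54 and 36 in the direction studied. This mirrored rule was chosen after the data were seen, and it is the stricter of the pair in its limit on the low group, which it sets on 6 arrays and not on 3. It uses the same signals that chose the 36, and a gene that fell but stayed at 50 or more cannot meet it. Nothing is therefore read from the comparison of these counts.

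Position entered the choice only through exclusions: a run of neighbouring genes on chromosome 5, pseudogenes and organelle transcripts were left out. Members could therefore not lie in that run. By gene order in RefSeq's TAIR10.1 annotation, none of the 21 single-gene members had another member as its nearest measured gene on either side. Measured means here a locus with a named probe set. The 13 unnamed members could not be placed, so a member lying next to another may have been missed. The nearest measured genes were 42, of which 17 were directly adjacent to a member. Of these 42, limma called 0 higher and 0 lower in either mutant against the double transformant. Over all probe sets, 0.659% were called higher for the null mutant and 0.62% for the substitution mutant. A count of 0 called higher is near these shares. The shares called lower are not given here. At an unadjusted p under 0.05, 3 of the 42 differed for the null mutant, where 11.1% of all probe sets did, and 5 for the substitution mutant, where 11.8% did. Their median difference was 0.0157 for the null mutant and 0.0549 for the substitution mutant. Among the closest pairs, SAL2, directly after AT5G63990 and of the same protein family, had 7.01 to 10.7 in the null mutant, 4.78 to 14.9 in the substitution mutant and 5.85 to 15.1 in the double transformant. AT2G41250, directly before M17, averaged 232 ± 43.8 in the null mutant, 348 ± 14.9 in the substitution mutant and 193 ± 119 in the double transformant. Its differences of 0.43 and 1.02 (null and substitution mutant) did not pass (limma adjusted p = 0.699 and 0.24). M10, the nearest measured gene after M17 but not directly adjacent, averaged 14.9 ± 15.4 in the null mutant, 14.3 ± 10.6 in the substitution mutant and 5.12 ± 5.87 in the double transformant (SD, n = 3 each). Its differences of 0.84 for the null mutant and 0.95 for the substitution mutant did not pass (limma adjusted p = 0.733 and 0.683).

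**Figure D4:**
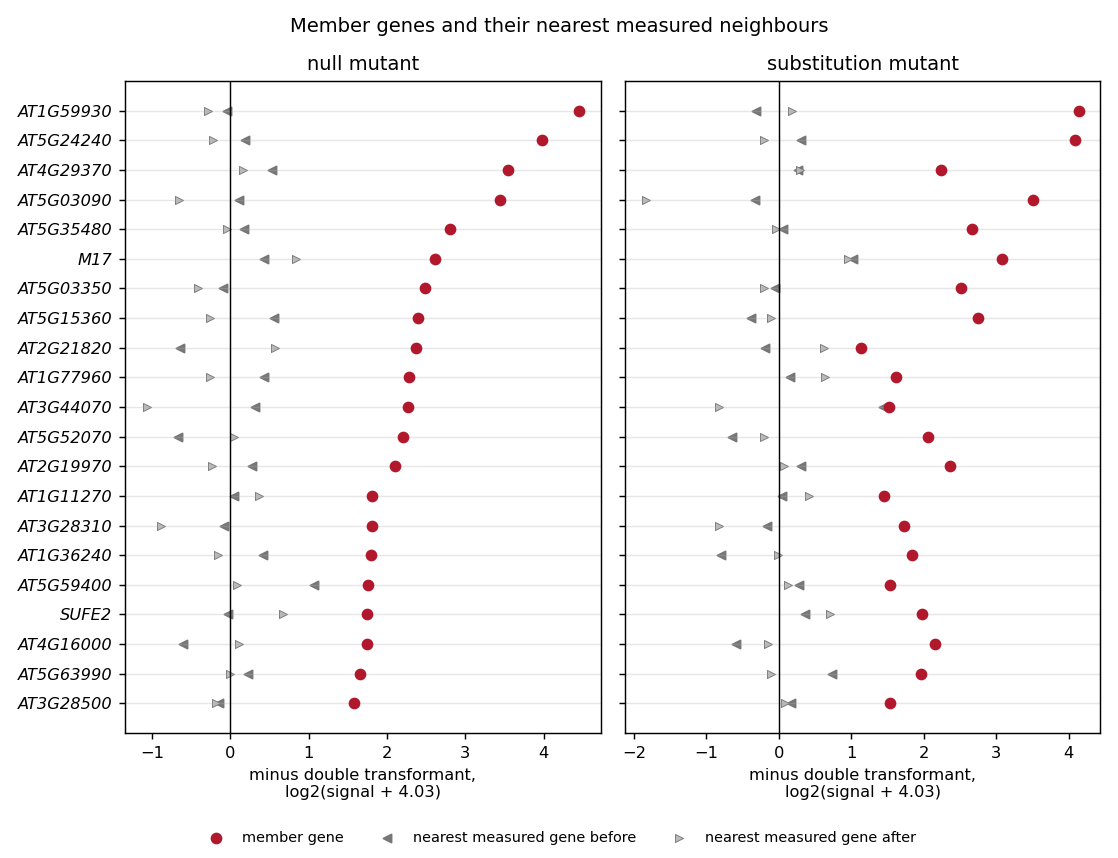
Difference from the double transformant on the scale of log2(signal + 4.03) for the 21 single-gene members (red circles) and the nearest measured gene before (dark triangles) and after (light triangles) each, in the null mutant (left) and the substitution mutant (right). The neighbours lie between -1.07 and 1.07 in the null mutant and between -1.83 and 1.44 in the substitution mutant. The members were chosen for being high, and the neighbours were not chosen by their values.

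The annotation also shows what surrounds these genes. It places transposable element genes in its pseudogene class. Among the 10 nearest protein-coding or pseudogene loci, 5 on each side, the members had a mean of 1.19 pseudogenes, against 0.689 over 12224 measured protein-coding loci, and the median was 0 in both. At least 3 of the 10 were pseudogenes for 3 of the 21 members (14.3%), against 7.71% of the measured loci. Those members were AT1G36240, the ribosomal protein gene, with 7, AT3G44070 with 5 and AT5G52070 with 3. The other 18 had fewer, and 11 of the 21 had 0.

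Genes of the silencing machinery could be followed only in part. Of 28 listed, only HDA7 and LDL2 had a named probe set, and limma called 0 of them in either mutant. At an unadjusted p under 0.05 there were 0 for the null mutant and 1, LDL2, for the substitution mutant, where 11.1% and 11.8% of all probe sets were. LDL2, for a histone demethylase-like protein, had 20.6, 14.9 and 30.6 on the null mutant arrays, 13.4, 15.8 and 10.2 on the substitution mutant arrays, and 20.2, 22.6 and 38.5 in the double transformant. Its difference for the substitution mutant was -0.83, with a limma adjusted p of 0.361. HDA7, for a histone deacetylase, was at 0.367 to 6.28 in the null mutant, 0.447 to 2.83 in the substitution mutant and 0.328 to 5.34 in the double transformant.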

How the data were processed

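The deposited table holds linear MAS5 intensity values (signals) for 22810 probe sets on 9 single-colour ATH1 arrays. The submitters' processing notes name MAS5 and GCOS without versions, and the labels name the 3' IVT Express kit for RNA labelling. No detection calls were used, so signals of a few units lie near background.

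Groups and replicate numbers came from sample titles. After 64 control sets were left out, log2(signal + 4.03) of 22746 probe sets was fitted in 1 model over all 9 arrays with limma 3.58.1 (R 4.3.3), with empirical Bayes moderation, an intensity trend and Benjamini-Hochberg adjustment over all probe sets. The fit was tested on simulated data for the comparison between the mutants, over 22746 probe sets. It recovered 37% of 100 sets with a log2 change of 1 and 77% of 100 with a log2 change of 2, and 4.2% of its 119 calls were false. The simulation gave all groups the same spread, where in the data 66.1% of probe sets spread more in the null than the substitution mutant. It also held more changes than the data, which had 9 calls. Recovery in the data may therefore be lower. Names came from a platform annotation updated through gene identifiers with RefSeq (TAIR10.1): 13513 probe sets have 1 gene, 503 several and 8730 none here, and 13436 matched a current locus. All single-gene members were named, with the 2 unnamed members of highest mutant mean; further unnamed probe sets and the protein families were picked after their values were seen. The members and all gene lists were chosen with earlier results of these data known. Same-numbered arrays deviated together with correlations of -0.0409 to 0.154, and pairing by number was therefore not used. Promoter and protein features were planned but not analysed here. Alternatives were other offsets, scalings, variance models, blocks, a dim filter and leaving out arrays; leaving out the 2 arrays that stand apart together was added after the data were seen.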

Additional observations from a re-analysis of the deposited data

How the results depend on the processing

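The rule kept between 34 and 61 probe sets when 1 array was left out, with 61 without double transformant 1, against 36 with all arrays. With quantile normalization it kept 31, of which 29 were among the 36. The median difference from the double transformant was 2.24 and 2.17 (null and substitution mutant) with an offset of 0.5 times the value used and 1.44 and 1.31 with 4 times the offset, as a larger offset compresses low signals by construction. It was 2.23 in the null mutant without probe sets whose mean over all arrays was under 30, which left 28 of the 36. Without single arrays, calls among the 36 numbered 16 to 24 for the null mutant and 11 to 23 for the substitution mutant. For the null mutant they numbered 13 when the 3 arrays with rpt in the title were left out, and 16 when double transformant 3 and null mutant 3 were. With a replicate block they were 22 and 26. Between the mutants, 0 of the 36 were called under each alternative run, while the count over all probe sets, 9, ran from 0 to 48 without single arrays. That count was 5 with a block for the rpt titles, 5 with centred medians, 0 without an intensity trend, 18 without the rpt arrays, 7 with a replicate block and 0 with double transformant 3 and null mutant 3 both left out; the cause was not tested. For single genes, 764 of 790 recomputed differences moved by less than the spread between arrays, and the 26 that moved more did so under another offset. Many of the 764 could not move. A variance model without the trend, either block, or leaving out an array of the third group gives the same difference. None changed sign, but with every mutant array above every control array, leaving out arrays or changing the offset could not change it.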
